A study of Mus musculus with 6 samples.

Results

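The GIMAP family (GTPases of immunity-associated proteins) was examined in Tregs with and without Zfp335. Its members were taken as the rows of the deposited count table whose gene symbol begins with Gimap. There were 8 of them, Gimap1, Gimap3, Gimap4, Gimap5, Gimap6, Gimap7, Gimap8 and Gimap9, among 13709 rows, and all 8 passed the filter on low counts that left 13594 rows for testing. Bulk RNA-Seq had been done on sorted CD4+YFP+CD25+ Tregs of C57BL/6 mice, in 3 samples with the genotype Foxp3Cre (WT) and 3 with Foxp3Cre Zfp335fl/fl (KO), the mice being 2 weeks of age per the study's methods. Cre and YFP are both made from the Foxp3 locus, so controls and KO cells alike carried Foxp3Cre, and the floxed Zfp335 gene was deleted in Foxp3-expressing cells of the KO animals. The labels gave both lymph nodes and spleen as the source of the cells. Whether a sample was 1 mouse or a pool was not stated, so the p-values measure the spread between these samples, which may be technical in part.

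GIMAP proteins carry a GTPase domain of the AIG1 type, and their genes sit together in a cluster in mammals. They are made mostly in lymphocytes, where several of them lie on the membranes of the endoplasmic reticulum, Golgi, lysosomes or lipid droplets. The family is known for its part in the survival of peripheral T cells, and rodents without a working Gimap5 lose most of these cells.

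All 8 genes lay on chromosome 6 (build mm10) between positions 48647186 and 48770851, a stretch of 124 kb. In chromosome order they were Gimap8, Gimap9, Gimap4, Gimap6, Gimap7, Gimap1, Gimap5 and Gimap3, with 2.40 to 15.2 kb between neighbors. Gimap6 and Gimap3 lay on the minus strand and the others on the plus strand. The phosphate-binding loop is the part of the GTPase domain that holds the nucleotide, and occurs in many other GTPases and ATPases as well. The bases that encode it are shown for each member, since the number of loops differs between them, from the coding sequence of its GENCODE M21 transcript (build GRCm38), 5′ to 3′. Capitals mark the codons of the fixed residues of the loop, a glycine and then glycine, lysine and serine.
Gimap8 loop 1: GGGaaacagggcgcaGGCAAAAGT
Gimap8 loop 2: GGGaagcgtggtgttGGGAAAAGT
Gimap8 loop 3: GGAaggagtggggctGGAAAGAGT
Gimap9: GGGaagactggaaatGGGAAGAGT
Gimap4: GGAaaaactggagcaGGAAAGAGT
Gimap6: GGGaaaacaggaagcGGGAAAAGT
Gimap7: GGGaaaacaggaagtGGAAAGAGC
Gimap1: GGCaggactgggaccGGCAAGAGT
Gimap5: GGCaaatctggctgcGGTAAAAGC
Gimap3: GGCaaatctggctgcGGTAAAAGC
Gimap8 held the loop 3 times, at codons 55 to 62, 291 to 298 and 482 to 489 of 688, and every other member held it once in 291 to 328 codons. Gimap5 and Gimap3 shared the same bases throughout the loop. Over their aligned coding sequences these 2 genes were 87.8% identical, the closest pair of the family, and the next closest, Gimap9 and Gimap7, were 65.1% identical. Of the 50-base stretches of the exons of Gimap3, 8.15% also occurred in another gene, mostly Gimap5, and the share for Gimap5 was 6.84%. For Gimap1 it was 35.5%, mostly from the antisense gene Gimap1os, which overlaps it and had no row in the table. A read-through gene, Gm28053, runs on the same strand over Gimap7, Gimap1 and Gimap5 and had no row in the table either. The strand setting of the authors' counting was not stated, so reads of Gimap1 and Gimap1os cannot be told apart here, and the split of reads between Gimap3 and Gimap5 is uncertain.

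Levels are in CPM, meaning reads of a gene divided by the library total, with the totals first adjusted by edgeR's TMM factors, and multiplied so that each library has the same size. Total counts ran from 32032631 to 40728419, at which 3 counts came to 0.0747 to 0.0914 CPM, far under the level of each member. Zfp335 itself was at 101.3, 94.3 and 103 CPM in WT and at 37.0, 37.9 and 40.2 CPM in KO, which left 38.6% of the WT level (log2 fold change -1.37, SE 0.073; edgeR's quasi-likelihood test, adjusted p = 2.14e-05). The Treg and T cell markers Cd4, Cd3e, Cd3g, Il2ra, Foxp3, Ctla4, Ikzf2 and Tnfrsf18 were all present, with a summed level of 4633 to 5726 CPM in WT and 3818 to 3938 CPM in KO. WT replicate 3 stood apart from the other 2 WT samples on the second principal component, at -58.9 against 22.1 and 34.4, and calls named below that changed without it are given both ways. In bulk samples, fewer cells of a type and less RNA per cell cannot be told apart.

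The members did not move as a block between genotypes. Gimap7 and Gimap4 were higher in KO, Gimap1, Gimap3 and Gimap8 were lower in KO, and Gimap5, Gimap6 and Gimap9 overlapped between genotypes. With no fold cutoff, 5 of 8 members had an adjusted p under 0.05 (2 higher and 3 lower), against 38.6% of all genes tested. Gimap7 alone passed the calling rule used here, a fold change above 1.5 with p under 0.05 and adjusted p under 0.1. That rule called 24.4% of all genes, 11.9% as higher and 12.5% as lower, so the share of members called lay near or under the background. By this rule 0 members were called lower with edgeR and 0 with DESeq2, while 3 were lower at an unadjusted p under 0.05 in edgeR. The 3 KO values did not overlap the 3 WT values in 5 members, against 53.8% of all genes. The median log2 fold change of the members was -0.071, and that of all genes tested was -0.035.

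**Figure D1:**
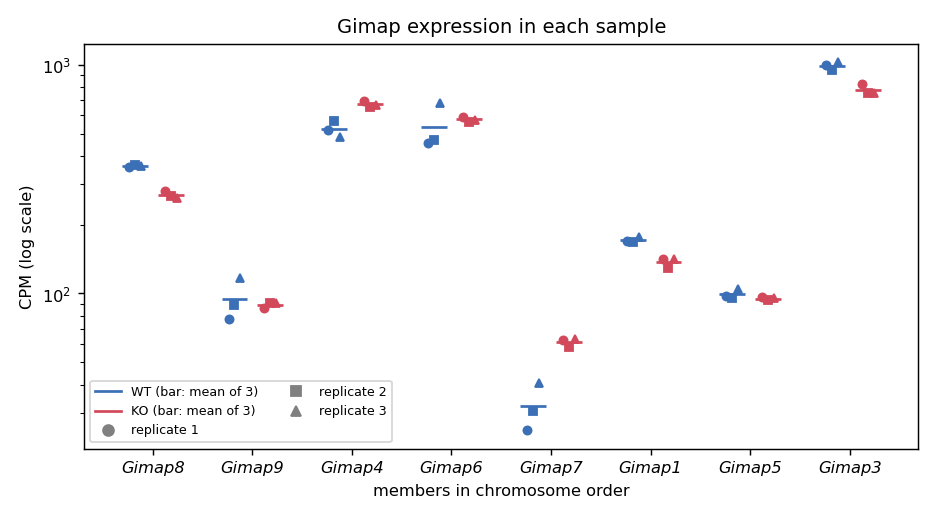
CPM (log scale) of each member in each sample, in chromosome order, with WT in blue, KO in red, a marker shape for each replicate and a bar at the mean of 3 samples. Gimap7 and Gimap4 lie higher in all KO samples, and Gimap8, Gimap1 and Gimap3 lower. WT replicate 3 lies well above the other WT samples in Gimap9, Gimap6 and Gimap7, and slightly above them in Gimap1, Gimap3 and Gimap5.

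Gimap7 encodes a GTPase that forms dimers through its GTPase domain and so stimulates hydrolysis of GTP. Its level was 25.2, 30.6 and 40.5 CPM in WT and 62.8, 58.6 and 63.3 CPM in KO, from 928 to 1349 reads per WT sample and 2233 to 2353 per KO sample. Every KO sample was above every WT sample, and the WT samples were much more spread than the KO samples (CV 24.2% and 4.23%). The log2 fold change was 0.94 (SE 0.16, 95% interval 0.57 to 1.31; edgeR's quasi-likelihood test, adjusted p = 0.00300), a fold change of 1.92. Of all genes tested, 17.7% had a log2 fold change of at least this size in either direction. Gimap7 rose in each of 16 settings tried, with log2 fold changes from 0.79 to 1.14.

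Gimap4, a member reported to bind Bax and to speed the death of T cells, was at 516, 567 and 481 CPM in WT and at 697, 654 and 669 CPM in KO. The groups did not overlap, and the KO mean was 29.2% above the WT mean (log2 fold change 0.37, SE 0.079; edgeR's quasi-likelihood test, adjusted p = 0.00791). The change was under the fold cutoff. In this gene WT replicate 3 was the lowest WT sample, at 0.888 of the mean of the other 2.

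Bases before and around the transcript start of the 2 members that rose, and of the most abundant member that fell, are shown because these genes moved in opposite directions within 1 cluster. They are RefSeq promoters of build GRCm38.p6, 250 bases before to 50 after the start, 5′ to 3′ on the strand of the gene, with capitals at matches on either strand to the ETS letters GGAAGT or the Runx letters TGTGGT.
Gimap7, chr6:48718371-48718670, plus strand: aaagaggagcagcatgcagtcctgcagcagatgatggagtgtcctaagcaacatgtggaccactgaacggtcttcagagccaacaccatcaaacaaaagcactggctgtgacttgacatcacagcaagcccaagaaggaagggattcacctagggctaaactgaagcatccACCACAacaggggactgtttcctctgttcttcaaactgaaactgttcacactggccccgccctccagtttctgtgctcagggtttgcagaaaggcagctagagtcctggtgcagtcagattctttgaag
Gimap4, chr6:48684328-48684627, plus strand: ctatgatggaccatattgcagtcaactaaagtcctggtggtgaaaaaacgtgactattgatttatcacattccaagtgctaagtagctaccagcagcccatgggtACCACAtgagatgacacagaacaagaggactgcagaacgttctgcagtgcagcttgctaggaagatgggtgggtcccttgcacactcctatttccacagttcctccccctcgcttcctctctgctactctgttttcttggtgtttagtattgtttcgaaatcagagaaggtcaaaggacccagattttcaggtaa
Gimap3, chr6:48770802-48771101, minus strand: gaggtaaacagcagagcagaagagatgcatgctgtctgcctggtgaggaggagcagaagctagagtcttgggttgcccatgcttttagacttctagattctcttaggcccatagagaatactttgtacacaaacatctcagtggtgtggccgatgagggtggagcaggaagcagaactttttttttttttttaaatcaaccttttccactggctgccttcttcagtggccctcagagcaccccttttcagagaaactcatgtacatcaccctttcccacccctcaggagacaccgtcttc
The Runx letters occurred in both Gimap7 and Gimap4, and also in Gimap1, which fell, so 3 of 9 member promoters held them (Gimap8 has 2 starts), against 16.8% of all 32851 promoters. The ETS letters were in 4 of 9, those of Gimap9, Gimap6, Gimap1 and Gimap5, against 23.8% of all promoters. The STAT letters TTCNNNGAA were in 4 of 9 and 8.30%, the GC box GGGCGG in 2 of 9 and 35.7%, and the forkhead letters TGTTTAC in 1 of 9 (Gimap3) and 3.65%. No set of letters separated the members that rose from those that fell.

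Gimap8, the member with the repeated GTPase domain, was at 357, 365 and 361 CPM in WT and at 280.4, 267 and 261 CPM in KO. All KO samples lay under all WT samples, and the WT samples differed little (CV 1.12%). It fell by 0.42 on the log2 scale (SE 0.062, 95% interval -0.56 to -0.28; edgeR's quasi-likelihood test, adjusted p = 0.00158), to 74.8% of the WT level.

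Gimap3, a close relative of Gimap5 that has been tied to T cell survival through proteins of the Bcl2 family, was the most abundant member by count. It was at 999.8, 946 and 1023 CPM in WT and at 819.9, 751 and 751 CPM in KO, with no overlap. The log2 fold change was -0.35 (SE 0.069; edgeR's quasi-likelihood test, adjusted p = 0.00542), which left 78.2% of the WT level. With the reads of Gimap3 and Gimap5 summed, so that their split did not matter, the log2 fold change was -0.33 (adjusted p = 0.00747).

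Gimap1, which is needed for mature T and B cells in mice, was at 170.1, 168 and 176 CPM in WT and at 141, 130 and 141 CPM in KO. The groups did not overlap, and KO cells kept 80.1% of the WT level (log2 fold change -0.32, SE 0.066; edgeR's quasi-likelihood test, adjusted p = 0.00681). This value includes any reads of Gimap1os.

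Gimap5 was at 97.1, 95.2 and 105 CPM in WT and at 96.2, 93.5 and 95.1 CPM in KO. The ranges overlapped, and the log2 fold change of -0.060 had a 95% interval of -0.21 to 0.091 (adjusted p = 0.51, edgeR's quasi-likelihood test). The lower bound lay above the log2 fold changes of Gimap8, Gimap3 and Gimap1. It lay inside the 95% intervals of Gimap3 (-0.52 to -0.19) and Gimap1 (-0.47 to -0.17), so the intervals overlapped. The split of reads between Gimap3 and Gimap5 is also uncertain.

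Gimap6, which binds the autophagy protein Gabarapl2, was at 453, 466 and 681 CPM in WT and at 592, 563 and 573 CPM in KO. Its KO samples lay between WT replicate 3 and the other WT samples. The log2 fold change was 0.11 (SE 0.15, 95% interval -0.24 to 0.46; edgeR's quasi-likelihood test, adjusted p = 0.60). Without WT replicate 3 it was 0.32 with an adjusted p of 7.46e-05, still under the fold cutoff, and 6 of 8 members then had an adjusted p under 0.05.

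Gimap9, by coding sequence the closest relative of Gimap7, was at 77.7, 89.0 and 117 CPM in WT and at 86.2, 90.9 and 90.5 CPM in KO. The KO samples lay inside the WT range. Its log2 fold change was -0.082 (SE 0.14, 95% interval -0.40 to 0.24; edgeR's quasi-likelihood test, adjusted p = 0.68). Leaving out WT replicate 3 turned the sign, to 0.095 (adjusted p = 0.29), so its direction was not settled.

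**Figure D2:**
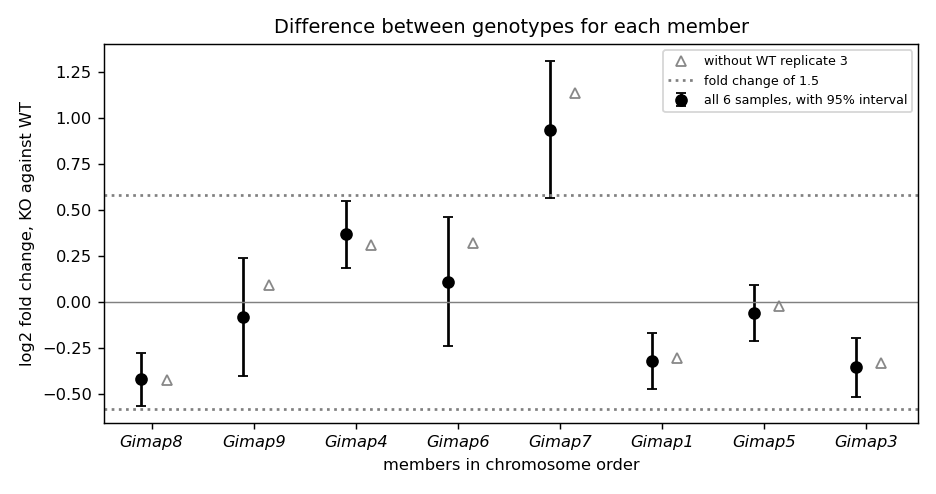
Log2 fold change of each member, KO against WT, in chromosome order, from edgeR with all 6 samples (black, bars are 95% intervals) and without WT replicate 3 (open triangles), with dotted lines at a fold change of 1.5. Gimap7 lies above the line in both fits, Gimap6 moves from 0.11 to 0.32, and Gimap9 changes sign.

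The WT samples differed from each other in some members and hardly at all in others. WT replicate 3 was at 1.48 times the mean of the other WT samples in Gimap6, at 1.45 times in Gimap7 and at 1.40 times in Gimap9, and at 0.9996 to 1.09 times in Gimap1, Gimap3, Gimap5 and Gimap8. Gimap9 and Gimap7 kept nearly the same ratio to each other in all WT samples, with log2 ratios of 1.62, 1.54 and 1.53, while in KO samples the log2 ratio was 0.46, 0.63 and 0.51. A summed list of 15 proliferation genes was at 1590, 1584 and 819 CPM in WT and at 4419 to 4579 CPM in KO, lowest in WT replicate 3. A summed list of 15 quiescence and naive T cell genes was at 4416, 4574 and 6126 CPM in WT and at 4151 to 4280 CPM in KO, highest in WT replicate 3. Gimap6, Gimap7 and Gimap9 were thus high in the WT sample with low proliferation genes. Gimap7 was higher still in the KO samples, where the proliferation genes were highest. The part of these lists in the results for the members was not tested.

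**Figure D3:**
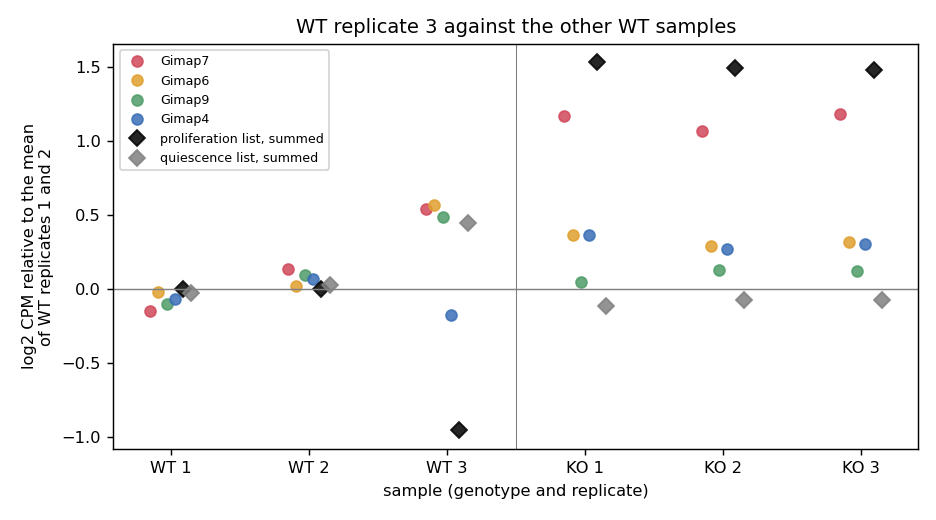
Log2 CPM of 4 members (circles) and of 2 summed gene lists (diamonds) in each sample, relative to the mean of WT replicates 1 and 2. In WT replicate 3, Gimap6, Gimap7, Gimap9 and the quiescence list lie at 0.45 to 0.57, Gimap4 at -0.17 and the proliferation list at -0.95, while in the KO samples Gimap7 lies at 1.07 to 1.18 and the proliferation list at 1.48 to 1.53.

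The summed level of the 8 members was 2696, 2727 and 2984 CPM in WT and 2776, 2609 and 2644 CPM in KO. These ranges overlapped, and the means were 2802 ± 158 and 2676 ± 88.0 CPM (SD, n = 3). The makeup of this sum shifted. Gimap3 made up 35.4% ± 1.52 of it in WT and 28.9% ± 0.58 in KO, and Gimap4 made up 18.7% ± 2.37 and 25.2% ± 0.12 (SD, n = 3). Gimap8 went from 12.9% to 10.1%, Gimap1 from 6.13% to 5.13%, and Gimap7 from 1.14% to 2.30%, each with no overlap. Gimap5, at 3.53% and 3.55%, Gimap9, at 3.35% and 3.34%, and Gimap6, at 18.9% and 21.5%, overlapped between genotypes.

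**Figure D4:**
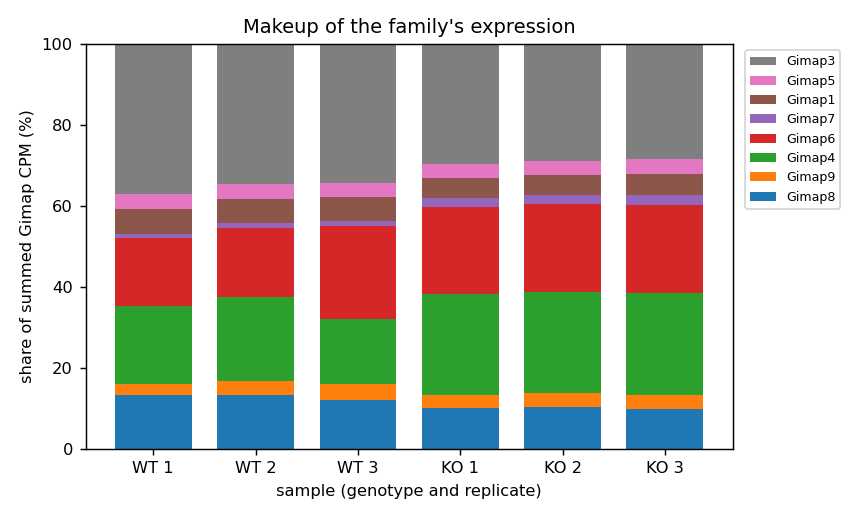
Share of the summed CPM of the 8 members (%) in each sample, stacked in chromosome order from Gimap8 at the bottom to Gimap3 at the top. Gimap3 takes 34.3 to 37.1% of each WT bar and 28.4 to 29.5% of each KO bar, and Gimap4 takes 16.1 to 20.8% and 25.1 to 25.3%.

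Levels of different genes were compared per kb of exon. In WT the order was Gimap3 (384 CPM per kb), Gimap4 (284), Gimap6 (153), Gimap8 (97.5), Gimap9 (57.5), Gimap1 (55.8), Gimap5 (23.9) and Gimap7 (13.8). Gimap9 and Gimap1 overlapped in range and cannot be ordered. In KO it was Gimap4 (366 CPM per kb), Gimap3 (300.4), Gimap6 (165), Gimap8 (72.9), Gimap9 (54.3), Gimap1 (44.7), Gimap7 (26.5) and Gimap5 (22.9), with no overlap between neighbors in that order. Gimap3 exceeded Gimap4 in each WT sample (367 to 397 against 262 to 309 CPM per kb), and Gimap4 exceeded Gimap3 in each KO sample (356 to 379 against 291 to 318). Gimap5 exceeded Gimap7 in each WT sample (22.9 to 25.2 against 10.8 to 17.4) and fell below it in each KO sample (22.5 to 23.2 against 25.2 to 27.2). Both changes of order were also seen per kb of the longest transcript, with Gimap3 and Gimap4 at 461 and 289 in WT and at 361 and 373 in KO, and Gimap5 and Gimap7 at 42.5 and 25.3 in WT and at 40.8 and 48.5 in KO. By CPM alone neither order changed, so both rest on the gene lengths. The places of Gimap8, Gimap9 and Gimap1 depended on the length used. Per kb of the longest transcript, Gimap1 exceeded Gimap9 in WT (106 against 68.2) and in KO (85.1 against 64.5). In KO it was then level with Gimap8 (85.4).

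Ratios between members do not depend on the scaling of the libraries. Of 28 pairs, 19 had log2 ratios that did not overlap between genotypes, and 25 without WT replicate 3. Fewer samples separate more easily. Of single genes 53.8% did not overlap with all 6 samples, and the share for pairs of other genes was not taken. The counts of pairs therefore cannot be read as a trait of the family. With 3 samples against 3 an exact two-sided permutation test cannot go below p = 0.1, and the smallest value adjusted over the 28 pairs was 0.147, so no pair could pass the threshold of 0.05. The log2 ratio of Gimap7 to Gimap3 was -5.31, -4.95 and -4.66 in WT and -3.71, -3.68 and -3.57 in KO, a difference of 1.32. That of Gimap4 to Gimap3 was -0.95, -0.74 and -1.09 in WT and -0.23, -0.20 and -0.17 in KO, a difference of 0.73. The 3 members that fell had similar log2 fold changes, so little change in their ratios to each other follows from how they were grouped. The differences between genotypes were 0.034 for Gimap1 to Gimap3, -0.065 for Gimap8 to Gimap3 and -0.10 for Gimap8 to Gimap1. Gimap5 as counted did not follow its neighbor Gimap1 or its relative Gimap3. Its log2 ratios to Gimap3 did not overlap, at -3.36, -3.31 and -3.29 in WT and -3.09, -3.01 and -2.98 in KO. The split of reads between Gimap3 and Gimap5 is uncertain, and Gimap1 includes any reads of Gimap1os.

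Position in the cluster did not sort the members by direction. The called member, Gimap7, lay between Gimap6, which did not pass, and Gimap1, which was lower. The members at both ends of the cluster, Gimap8 and Gimap3, were lower. Of 92 annotated genes within 500 kb of the cluster, 13 were in the table. Of these 13, 5 were called, 4 lower and 1 higher, against 24.4% of all genes called and 12.5% called lower. The 4 lower genes all lay before Gimap8. They were Zfp467 (37.1 ± 3.04 to 16.0 ± 0.98 CPM, SD, n = 3), Sspo (28.2 ± 8.44 to 8.15 ± 1.82), the pseudogene Zfp862-ps (53.8 ± 8.69 to 19.2 ± 0.78) and Lrrc61 (46.6 ± 2.92 to 29.1 ± 1.29). The 3 neighbors nearest to Gimap8, AI854703, Zfp775 and Repin1, were not called and had log2 fold changes of -0.18, 0.26 and 0.25. The gene called higher, Gpnmb, which encodes a glycoprotein of macrophages and pigment cells, lay beyond Gimap3 and went from 0.972 ± 0.27 to 4.64 ± 0.99 CPM (SD, n = 3). Krba1, the farthest neighbor before Gimap8, lay at the edge of the fold cutoff with a log2 fold change of -0.58, and was also called lower without WT replicate 1, WT replicate 2, KO replicate 1 or KO replicate 2, which made 5 lower neighbors. The median log2 fold change of the 13 neighbors was -0.043.

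**Figure D5:**
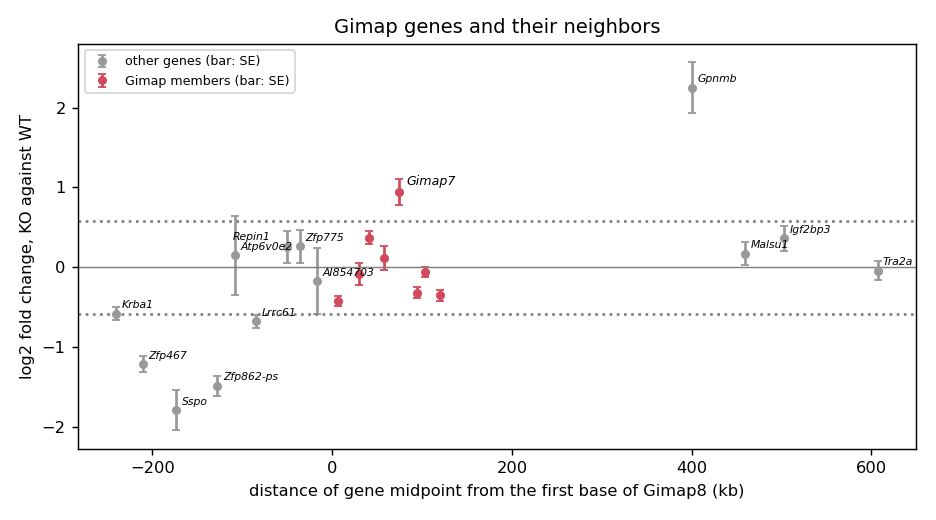
Log2 fold change, KO against WT, of the 8 members (red) and of the 13 neighboring genes in the table (grey) against the distance of each gene's midpoint from the first base of Gimap8 (kb), with bars for the SE and dotted lines at a fold change of 1.5. The 4 genes called lower lie before the cluster, separated from it by 3 genes that were not called.

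The genes whose log2 CPM followed the summed level of the members most closely over the 6 samples, among 9874 genes with a mean level of 5 CPM or more, were Pnpla8 (Pearson r = 0.992), Iscu (0.983), Slc30a9 (0.978), Dedd2 (0.977) and Dapk3 (0.975). These are descriptions over samples that share libraries, and they follow the high value of WT replicate 3. Pnpla8, for example, was at 29.8, 30.4 and 36.7 CPM in WT and at 30.8, 28.1 and 28.3 CPM in KO. None of these 5 genes was called, and their log2 fold changes ran from -0.17 to -0.11. They were chosen to follow a sum that overlapped between genotypes, so small differences follow from the choice.

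Among 12 genes for proteins that GIMAPs have been reported to bind or act with, members of the Bcl2 family, the Gabarap and LC3 proteins of autophagy and Gsk3b, 1 was called, with 6 of the log2 fold changes above 0 and 6 below and a median of -0.045. The share called over all genes was 24.4%. The called gene of this list was Bcl2l11, which encodes the death-promoting protein Bim. It was at 164, 153 and 135 CPM in WT and at 80.0, 87.3 and 79.7 CPM in KO, with no overlap. The log2 fold change was -0.87 (SE 0.087; edgeR's quasi-likelihood test, adjusted p = 0.000314). Bcl2, which protects T cells from death, had an adjusted p of 0.00829 but a change under the fold cutoff, at 334, 343 and 419.8 CPM in WT and 272, 270.0 and 262 CPM in KO. Bax was at 63.1, 63.8 and 83.0 CPM in WT and at 73.5, 74.3 and 77.0 CPM in KO, inside the WT range. Gabarapl2, the partner of Gimap6, was at 50.7, 55.2 and 52.3 CPM in WT and at 64.7, 61.9 and 64.6 CPM in KO, with no overlap and a log2 fold change of 0.27 under the fold cutoff (edgeR's quasi-likelihood test, adjusted p = 0.0172). Gabarapl1, a close relative of Gabarapl2, was at 17.0, 18.02 and 19.0 CPM in WT and at 25.2, 24.4 and 26.2 CPM in KO, also with no overlap and under the fold cutoff (log2 fold change 0.49; edgeR's quasi-likelihood test, adjusted p = 0.0049). Bcl2l1, which encodes the survival protein Bcl-xL, was at 87.0, 85.4 and 68.6 CPM in WT and at 62.7, 65.5 and 65.6 CPM in KO, with no overlap and a log2 fold change of -0.31 under the cutoff (edgeR's quasi-likelihood test, adjusted p = 0.0394). The other 6 genes of the list had log2 fold changes of -0.21 to 0.35. Without WT replicate 3, Map1lc3a was also called, as higher, with its log2 fold change at 0.82 in place of 0.35.

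Over all genes 12.5% were called lower and 11.9% higher. Of the 15 quiescence and naive T cell genes, 5 were called lower (Tob1, Btg2, Tcf7, Foxo1 and Klf3) and 1 higher (Satb1), with a median log2 fold change of -0.44. Without WT replicate 3 only Tcf7 and Foxo1 of the 5 were called lower, and Il7r joined Satb1 as called higher. Without KO replicate 1 the count of lower calls was 3. Foxo1, a transcription factor of T cell quiescence, was at 299, 309 and 329 CPM in WT and at 186, 194 and 203 CPM in KO. All 15 proliferation genes were called higher, with a median log2 fold change of 1.92. Gimap7 thus rose in the KO samples along with these genes, while 3 other members fell there. Among WT samples Gimap7 went the other way. In WT replicate 3, Gimap7 was at 0.54 and the proliferation list at -0.95 (log2, relative to the mean of WT replicates 1 and 2). Of the septins, GTPases related to GIMAPs in the fold of their GTPase domain, 11 rows were tested, 4 were called higher and 1 lower, and the median log2 fold change was 0.40. Septin11 was at 107, 99.7 and 63.5 CPM in WT and at 191, 195 and 184 CPM in KO, and Septin8 at 26.3, 21.6 and 19.7 CPM in WT and at 51.1, 48.8 and 51.1 CPM in KO. Septin10, 1 of the 2 rows of Septin2 (both higher) and Septin3 (lower) were called at mean levels of 36.1 CPM or less. The Septin3 values, 1.60, 1.58 and 0.661 CPM in WT and 0.301, 0.124 and 0.794 CPM in KO, overlapped. Its call was lost under most other settings, such as median-ratio size factors in edgeR, the GC and length offsets and without WT replicate 1. Both stricter filtering and no filter on low counts also lost it, while DESeq2 and library totals alone kept it. Without KO replicate 3 the septins called higher were 2, Septin11 and Septin8.

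Markers of other cells were checked in the same samples. Of 8 myeloid markers 7 were in the table, and all 7 were called higher, with a summed level of 9.88 to 20.8 CPM in WT and 45.3 to 51.7 CPM in KO. Lyz2, at 4.30 CPM in WT replicate 3 and 12.7 and 13.9 CPM in the other WT samples, was not called without that sample, and the other 6 were. The granulocyte genes S100a8 and S100a9 were at 0 in all WT samples and at 1.30 to 2.82 CPM in KO. Of 5 NK and innate lymphoid markers 4 were in the table, 3 were called higher, and the sum of the 4 was 3.78 to 5.89 CPM in WT and 15.4 to 17.3 CPM in KO. Most of the KO sum was Eomes (2.31 ± 0.81 to 11.3 ± 0.24 CPM, SD, n = 3). Klre1 and Klrb1c were also called, but Klrb1c not without WT replicate 1, WT replicate 2, KO replicate 2 or KO replicate 3. Ncr1 was not called (0.384 ± 0.23 to 0.940 ± 0.28 CPM, edgeR's quasi-likelihood test, adjusted p = 0.13). The 6 B cell markers summed to 21.01 to 24.5 CPM in WT and 19.8 to 21.6 CPM in KO, with Cd79b called lower (12.2 ± 2.04 to 5.12 ± 0.83 CPM, SD, n = 3) and Cd22 called higher (4.18 ± 1.32 to 8.40 ± 1.11 CPM). The 2 CD8 T cell markers, Cd8a and Cd8b1, summed to 9.32 to 13.2 CPM in WT and 12.02 to 12.7 CPM in KO. Cd8a was called higher (1.86 ± 0.74 to 3.71 ± 0.74 CPM, SD, n = 3). That call was lost without WT replicate 2, KO replicate 1 or KO replicate 3. Cd8b1, most of the sum, was not called (9.16 ± 1.56 to 8.69 ± 0.84 CPM, log2 fold change -0.076). The 5 red cell and platelet markers in the table summed to 23.3 to 101 CPM in WT, lowest in WT replicate 3, and to 43.2 to 49.8 CPM in KO. With edgeR 0 of these 5 were called and 0 had an unadjusted p under 0.05, while DESeq2 called Hba-a1 lower. Without WT replicate 3 the globin genes Hba-a1, Hba-a2 and Hbb-bs were called lower, with log2 fold changes of -1.31, -0.99 and -0.96. Endothelial and stromal markers summed to 193 to 206 CPM in WT and 139 to 148 CPM in KO, nearly all of it Pecam1 (197 ± 6.89 to 137 ± 5.12 CPM, SD, n = 3), which lymphocytes also express. Pdgfrb was called higher, at 0, 0 and 0.781 CPM in WT and at 2.55, 2.22 and 2.24 CPM in KO. Its call was lost with DESeq2 and when any sample other than WT replicate 3 was left out. The part of other cells in the rise of Gimap7 and Gimap4 was not tested. Of the Treg markers, Ikzf2 and Foxp3 were called lower. Foxp3 had a log2 fold change of -0.88, and of -0.57, just under the fold cutoff, when WT replicate 3 was left out. Cd3g moved from -0.49 to -0.61 in that fit and was then called lower.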

How the data were processed

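Total RNA from sorted Tregs of 3 WT and 3 KO samples had been sequenced. The study's methods name SOAPnuke for read filtering and HISAT2 for alignment to mm10, keeping 1 alignment per read, and StringTie for expression per gene as TPM. The authors deposited 1 table of whole-number counts per gene, not normalized. How these whole-number counts were taken, the annotation and the strand setting are not given in the sources used here, and the smallest row sum of 60 shows that rows with low counts had been left out. Keeping 1 alignment per read can move reads between near-identical genes such as Gimap3 and Gimap5.

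From these counts, rows were filtered with filterByExpr (minimum count 10), scaled by TMM and tested with edgeR 4.0.16 in R 4.3.3 (glmQLFit and glmQLFTest, two-sided, KO against WT, 6 samples, no covariate). Benjamini-Hochberg adjustment ran over 13594 genes. A gene was called at a fold change above 1.5, p under 0.05 and adjusted p under 0.1. The floor of 3 counts covers counting error only. Pair ratios were tested with exact permutation tests (scipy 1.17.1). Gene positions and promoters came from RefSeq (GRCm38.p6). Strands, overlapping genes, exon lengths and coding sequences came from GENCODE M21 (GRCm38). Coding sequences were aligned with Biopython 1.88. Correlations with the summed level used log2 CPM with a prior count of 2. The procedure was tested on simulated data.

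Genes named are all members, Zfp335, genes within 500 kb of the cluster and the 5 genes most alike to the summed level. From the lists, some or all of the called genes and some uncalled ones are named. The called proliferation genes are given as a count only. Members and lists were chosen with earlier results of these data known. Same-numbered WT and KO samples did not deviate together (correlations of 0.038, 0.040 and -0.012), so the numbers were not treated as pairs. Alternatives tried were DESeq2 1.42.0, other scalings, filters and cutoffs, GC and length offsets, a replicate block and leaving out each sample.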

Additional observations from a re-analysis of the deposited data

How the results depend on the processing

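Gimap7 was the 1 member called with DESeq2, with size factors of the median-ratio kind, with library totals alone, with no filter on low counts, with at least 10 counts in every sample, with GC and length offsets, against a minimum fold change of 1.5 (glmTreat) and without each sample in turn. With an adjusted p under 0.05 and no fold cutoff, 5 members and 5244 genes were called, and with glmTreat 1686 genes, against 3318 in the analysis as reported. Under the replicate block 3190 genes and 1 member were called, and leaving out a sample gave 2867 to 3667 genes. Leaving out a sample moved the log2 fold change of Gimap9 over a range of -0.21 to 0.095, with the positive value only without WT replicate 3. The log2 fold changes of Gimap8 (-0.46 to -0.40), Gimap3 (-0.40 to -0.33), Gimap1 (-0.36 to -0.27) and Gimap4 (0.30 to 0.43) kept their sign under all settings tried. The count of members with an adjusted p under 0.05 and no fold cutoff was an alternative chosen after seeing the data. It was 6 without WT replicate 3. It was 5 with DESeq2 and with each other scaling, filter, offset, block or sample left out. Against a minimum fold change of 1.5, Gimap7 had an adjusted p of 0.071 (glmTreat) and was called at the cutoff of 0.1. The counts of lists and neighbors without single samples were also chosen after seeing the data. With 3 samples a genotype, and WT replicate 3 apart from the others, changes of the size seen in Gimap6 or Gimap9 could not be settled. Depth did not limit any member, the lowest having 928 reads in its lowest sample.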
